A study of Mus musculus with 7 samples.

Results

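The nuclear genes for the subunits of respiratory complexes I, III and IV were followed through 7 RNA-Seq libraries of mouse cells. They were chosen by gene symbol alone. Protein-coding genes named Nduf with a letter of the a, b, c, s or v series, together with Ndufab1, stood for complex I. The 8 Uqcr symbols b, q, h, c1, c2, fs1, 10 and 11 stood for complex III. Cox5 to Cox8 symbols stood for complex IV. This gave 61 of the 29267 genes in the tables, 38 for complex I, 8 for complex III and 15 for complex IV. Assembly factors were left out, and the symbol rule also missed Cox4i1, Cox4i2, Cox7a2l and Cyc1, which are given separately. Of 65 annotated symbols that matched, 4 were processed pseudogenes and were not used.

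Complex I passes electrons from NADH to ubiquinone, complex III hands them to cytochrome c, and complex IV gives them to oxygen. Each pumps protons across the inner mitochondrial membrane, and ATP synthase uses the gradient. The catalytic centres of complexes III and IV and the membrane arm of complex I also contain proteins made from mitochondrial DNA, whose genes were not analysed here. Several subunits exist as a widely used form and a form of muscle, testis or low oxygen. Naive pluripotent cells are known for using both respiration and glycolysis, and primed pluripotent cells for leaning on glycolysis.

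The cells were OG2 mouse embryonic fibroblasts, which carry GFP under regulatory DNA of Oct4, after retroviral delivery of Oct4, Sox2, Klf4 and c-Myc. On day 15, cells reprogrammed in mES medium (serum, LIF and vitamin C) or in 5C medium (DMEM/F12 with N2, bFGF, LIF, beta-mercaptoethanol and vitamin C) were sorted by GFP. Each medium gave an Oct4GFP+ and an Oct4GFP- fraction, named mES-Oct4GFP+ or 5C-Oct4GFP+ and mES-Oct4GFP- or 5C-Oct4GFP-, all at passage 0. The 5C-Oct4GFP+ cells were also carried for 20 passages in naive medium (LIF with CHIR99021 and PD0325901) or in primed medium (first bFGF and activin A, then CHIR99021 with IWR-1). R1 ESCs-primed came from the embryonic stem cell line R1 after 20 passages in primed medium. By the paper's methods, R1 cells entered the primed state on a feeder layer of mouse embryonic fibroblasts and were later kept on serum-coated plates. The GFP reporter was used as a sign that the cell's own Oct4 is active. The paper describes it as driven by the Oct4 promoter with the distal enhancer, and reports that cells moved to primed medium lost GFP. A lack of GFP is thus not by itself a lack of pluripotency. There was 1 library per group and so no replicate, and no difference below can be set against a spread between cultures.

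The library totals were between 6108252 and 11496615 expected counts, and 1 read on a member of median length was worth 0.287 to 0.529 TPM. Markers followed the labels only in part. Pou5f1, the gene of Oct4, was at 1321 and 3640 TPM in the Oct4GFP+ and Oct4GFP- cells of mES medium and at 2429 and 1534 TPM in those of 5C medium, and Sox2 and Klf4 were higher in the Oct4GFP- than in the Oct4GFP+ fraction of both media. These genes were also delivered by retrovirus, and the tables do not separate the cell's own transcripts from those of the vectors. The 8 naive markers, Klf4 among them, thus summed to 1689 and 1579 TPM in the Oct4GFP- cells of mES and 5C medium and to 1633 and 1202 TPM in the Oct4GFP+ cells, while the other 7 were each lower in both Oct4GFP- libraries than in both Oct4GFP+ libraries. Of these, Esrrb was at 246 and 230 TPM in the Oct4GFP+ cells of mES and 5C medium, at 207 TPM in naive cells and between 1.00 and 15.3 TPM in the other 4 libraries. The 8 primed markers summed to 2176 and 1981 TPM in the primed libraries and to at most 703 TPM elsewhere. All 8 fibroblast markers reached 1 TPM in both Oct4GFP- libraries and in both primed libraries, and they summed to 500 and 262 TPM in the Oct4GFP- cells of mES and 5C medium, to 77.0 and 218 TPM in primed and R1 ESCs-primed cells and to 10.5 to 15.7 TPM in the other 3. Fewer cells of a type and less RNA per cell cannot be told apart in such bulk samples.

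Nearly all of the subunit genes were strongly expressed everywhere. Of the 61 genes, 55 had at least 10 TPM in every library, 56 at least 1 TPM in every library and 60 at least 1 TPM in some library. TPM is per length, so levels of different genes can be set side by side. The summed level of the members was at 16666 and 13202 TPM in the Oct4GFP+ and Oct4GFP- cells of mES medium, at 16000 and 13998 TPM in those of 5C medium and at 17979, 15353 and 14697 TPM in naive, primed and R1 ESCs-primed cells. The sum was thus lowest in the 2 Oct4GFP- libraries and highest in naive cells, where it was 1.36 times that of mES-Oct4GFP-.

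**Figure D1:**
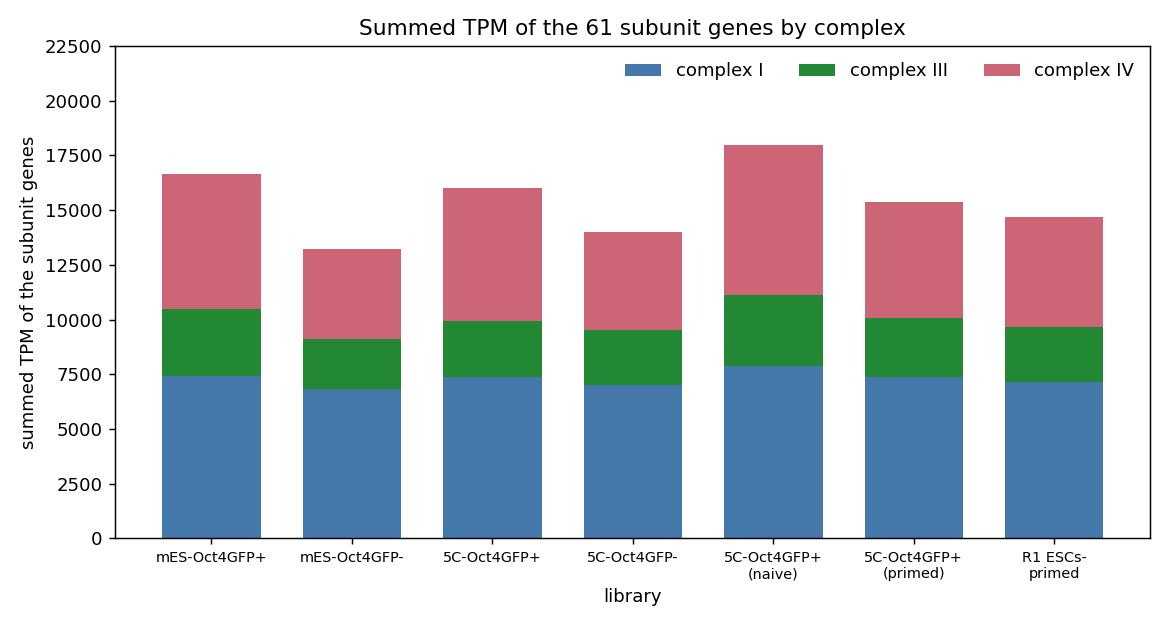
Summed TPM of the 61 subunit genes (y axis) in each of the 7 libraries (x axis), with 1 library per group and stacked by complex. The complex I part stays between 6844 and 7885 TPM, whereas the complex IV part is lowest at 4113 TPM (mES-Oct4GFP-) and highest at 6860 TPM (naive cells).

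The complexes took unequal parts in this difference. The sum of complex I was 1.15 times as high in naive cells as in mES-Oct4GFP-, that of complex III 1.44 times and that of complex IV 1.67 times. Under 4 other scalings (FPKM, CPM, CPM with TMM factors, and TPM scaled by the median ratio of each library's genes to their mean over the libraries) these libraries were also the lowest and the highest, except that complex I was lowest in 5C-Oct4GFP- with median-ratio factors, and complex IV gave 1.91 to 2.14 times. Complex IV held 38.2% of the summed member TPM in naive cells, 37.8% and 37.1% in the Oct4GFP+ cells of 5C and mES medium, 34.5% and 34.2% in primed and R1 ESCs-primed cells, and 32.1% and 31.2% in the Oct4GFP- cells of 5C and mES medium. The naive library and both Oct4GFP+ fractions were thus the 3 highest. Complex I showed the opposite order at its ends, with 51.8% in mES-Oct4GFP- and 43.9% in naive cells. Complex III stayed between 16.2% and 18.4%. The complex I sum and share of mES-Oct4GFP- include 392 TPM of Ndufa4l2, which was at 0.48 TPM in naive cells. Without that gene the contrast between complexes I and IV would be smaller. Ndufa4 and Ndufa4l2 stand with complex I by symbol only, and the sums were not redone with them under complex IV.

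**Figure D2:**
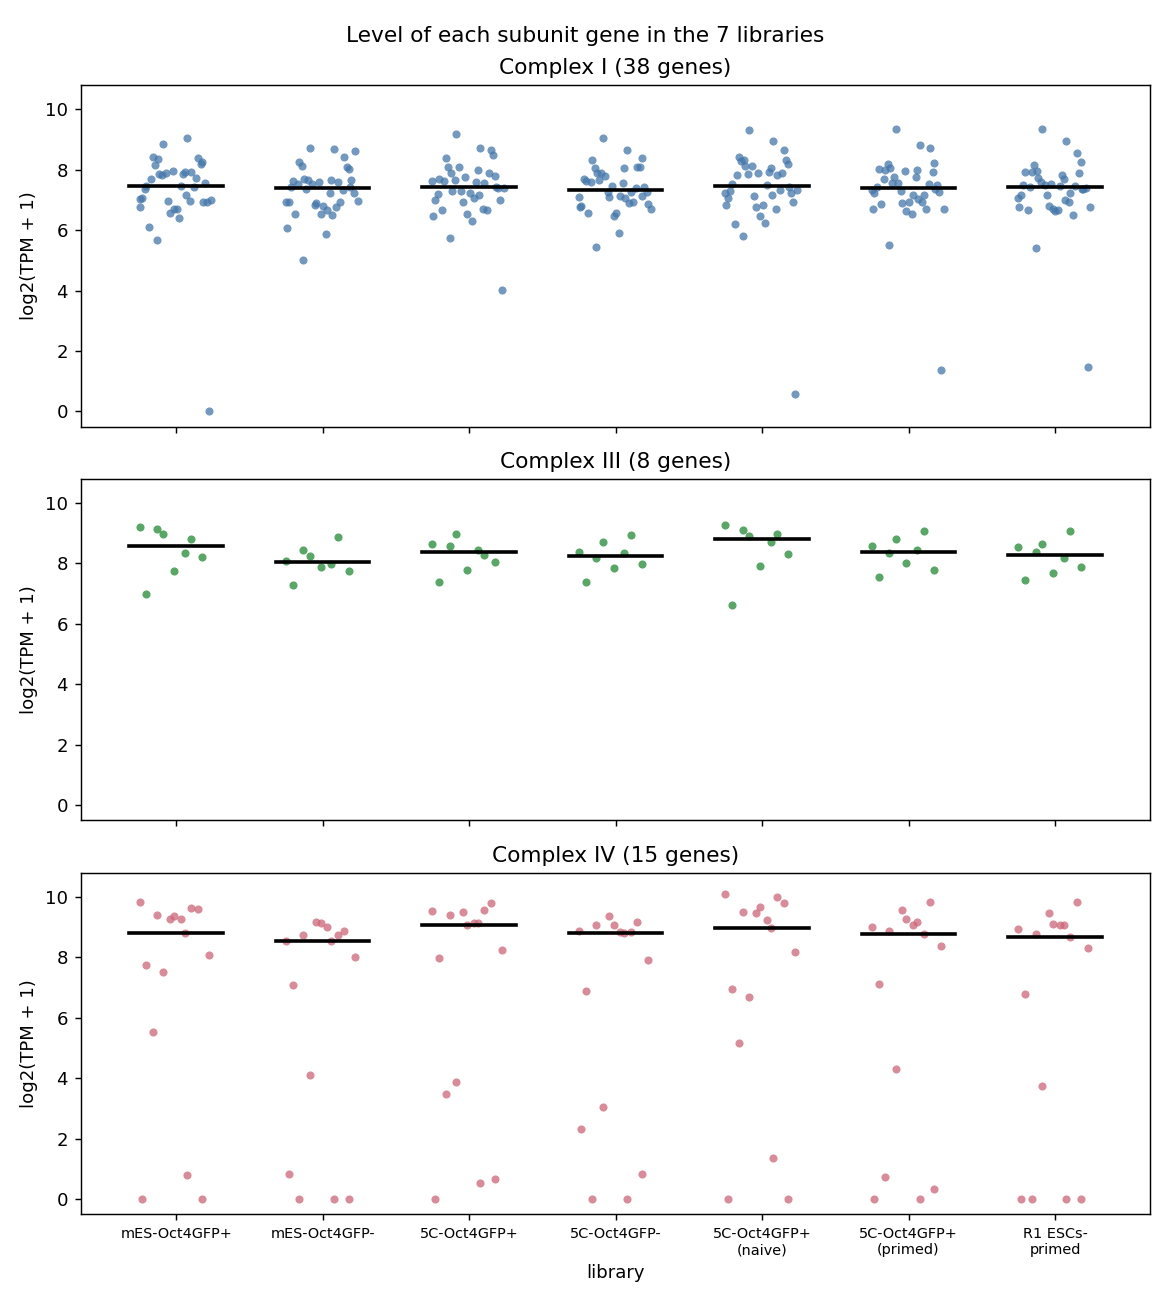
Level of each subunit gene as log2(TPM + 1) (y axis) in the 7 libraries (x axis), with 1 panel per complex, 1 point per gene and a black bar at the median. The medians of complex I stay between 7.33 and 7.46, and the single low point of complex I is Ndufa4l2, while complex IV has several tissue-restricted forms near 0.

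The typical level also differed between complexes. The median complex I gene lay between 160 and 175 TPM in the 7 libraries, the median complex III gene between 263 and 449 TPM, and the median complex IV gene between 371 and 542 TPM. By its median over the libraries, Ndufa4 was the highest gene with an Nduf symbol at 580 TPM. It is named for complex I and is now counted with complex IV. Uqcrh, the hinge protein that helps cytochrome c dock, led complex III at 496 TPM, and Uqcrfs1, the Rieske iron-sulphur protein, was its lowest gene at 165 TPM. Cox7c, a small membrane subunit, led complex IV at 884 TPM. Ndufa4l2 had the lowest median with an Nduf symbol (1.76 TPM), and Cox6a2, a muscle form, was never above 0.80 TPM.

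The members were even across the libraries compared with other genes. The highest library was less than 2-fold above the lowest, on the TPM + 1 scale, for 52 of 61 members (85.2%) and for 22.3% of the 17733 genes with at least 1 TPM in some library. This spread had a median of 1.57-fold for the members and 2.93-fold for all those genes. High expression and short transcripts are shared by the members and were not held equal here. By complex, 37 of 38 genes of complex I, 7 of 8 of complex III and 8 of 15 of complex IV stayed below 2-fold. Ndufb8, an accessory subunit of the complex I membrane arm, was the most even at 1.16-fold. Among the 55 genes with at least 10 TPM throughout, naive cells held the highest value for 17 and primed cells for 12, and mES-Oct4GFP- held the lowest value for 21. The same counts were not taken over other genes or under other scalings, so they cannot show a trait of the members.

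**Figure D3:**
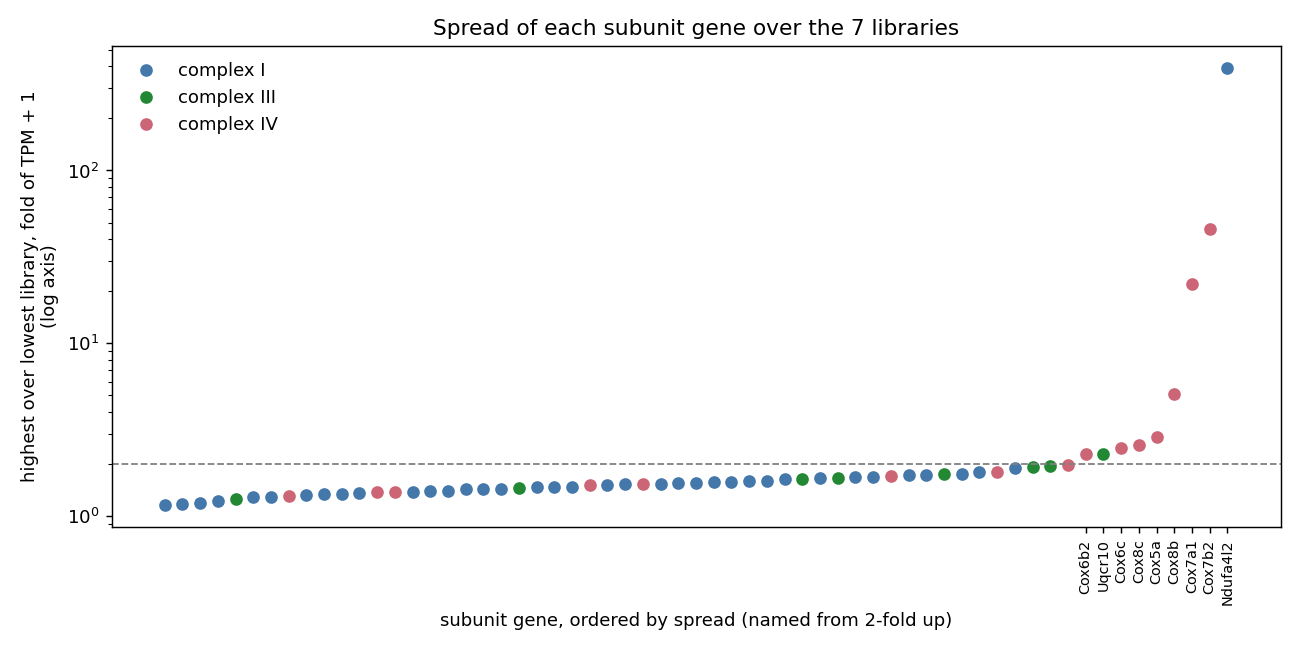
Spread of each of the 61 subunit genes over the 7 libraries, as the highest over the lowest value of TPM + 1 (y axis, log axis), ordered along the x axis, coloured by complex and named from 2-fold up. The dashed line marks 2-fold, with 52 genes below it and Ndufa4l2, Cox7b2 and Cox7a1 far above.

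The core genes of complex I given here spread between 1.20-fold and 1.68-fold, on both sides of the complex I median of 1.49-fold. Among them, Ndufv1, Ndufv2, Ndufs1, Ndufs3, Ndufs7 and Ndufs8 belong to the arm that takes electrons from NADH and passes them along the flavin and the iron-sulphur clusters. Ndufs1, the largest of them, was at 124 and 108 TPM in the Oct4GFP+ and Oct4GFP- cells of mES medium, at 103 and 119 TPM in those of 5C medium and at 104, 121 and 120 TPM in naive, primed and R1 ESCs-primed cells, a spread of 1.20-fold. Ndufs7 spread over 1.36-fold and Ndufs3 over 1.38-fold. Ndufv1, Ndufv2 and Ndufs8 spread wider, over 1.59-fold, 1.59-fold and 1.68-fold, and had their lowest value in mES-Oct4GFP-. Ndufv1 was at 90.2 TPM there and at 126 to 144 TPM in the other 6 libraries. Ndufv2 was at 205 TPM there and at 236 to 326 TPM elsewhere, and Ndufs8 at 66.0 TPM against 87.8 to 112 TPM. Exons of Ndufs1 and Ndufs3 overlap genes of the opposite strand (Eef1b2 and Ino80dos, and Kbtbd4), as does Uqcrc2 (Pdzd9), and Ndufb8 overlaps Gm20538. The library kit is not described as keeping strand, so reads in those overlaps cannot be assigned to a strand.

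The genes of complex III differed in their patterns. Uqcrc1 and Uqcrc2, the core proteins, spread over 1.46-fold and 1.25-fold. Uqcr10, a small subunit, was at 587 and 272 TPM in the Oct4GFP+ and Oct4GFP- cells of mES medium, at 401 and 329 TPM in those of 5C medium and at 623, 381 and 372 TPM in naive, primed and R1 ESCs-primed cells. Its 2 highest values were thus in mES-Oct4GFP+ and naive cells. Uqcrfs1 ran the other way, with its 2 lowest values in naive cells (98.0 TPM) and mES-Oct4GFP+ (125 TPM) and 154 to 189 TPM elsewhere. Uqcrh was at 309 TPM in 5C-Oct4GFP+ and at 445 to 541 TPM in all other libraries.

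Complex IV held the widest differences among abundant subunits. Cox5a, a matrix-side subunit, was at 902 and 376 TPM in the Oct4GFP+ and Oct4GFP- cells of mES medium, at 746 and 470 TPM in those of 5C medium and at 1082, 511 and 488 TPM in naive, primed and R1 ESCs-primed cells. Cox6c, a small membrane subunit, was at 787 and 428 TPM in the Oct4GFP+ and Oct4GFP- cells of mES medium, at 751 and 454 TPM in those of 5C medium and at 1010, 436 and 404 TPM in naive, primed and R1 ESCs-primed cells. For both genes the naive library and both Oct4GFP+ fractions lay above the other 4 libraries without overlap. Cox6a1, the common form of the subunit that Cox6a2 replaces in muscle, also had its 3 highest values there (674, 677 and 719 TPM) against 422 to 540 TPM. This grouping was read from these same values, and the share of all genes that show it was not taken. Cox7c, in contrast, was lowest in the Oct4GFP- libraries (463 and 581 TPM) and at 767 to 917 TPM in the other 5, primed cells included. Cox8a spread over 1.31-fold and Cox7b over 1.37-fold. Cox5a shares a stretch of 146 bases with the overlapping Gm26631, Cox7c has 2 near-identical copies outside the tables, and an exon of Cox6c overlaps Vps13b on the other strand.

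The promoters of these genes can be read beside their levels. The windows of RefSeq (GRCm38.p6) from 250 bases before to 50 bases after a start site covered 50 of the 61 members with 52 windows. The NRF1 letters (GCGCA, any base, GCGC) stood in 19.2% of the member windows and in 4.60% of all 32851 windows. NRF1 is a factor long tied to respiratory genes. The YY1 letters AAGATGGC stood in 13.5% and 2.75% and the ETS letters CCGGAAG in 17.3% and 8.86%. The ERR letters AAGGTCA stood in 5.77% and 4.72%, and the hypoxia-response letters ACGTG in 21.2% and 19.6%. The NRF1 letters were found for 9 members, Cox6a1, Ndufa5, Ndufa6, Ndufa8, Ndufa11, Ndufb4, Ndufs5, Ndufs6 and Uqcrc1. All 9 spread less than 2-fold, but so did 52 of all 61 members (85.2%), so no link between the letters and steady levels follows. All motifs were searched on both strands, and none contains another. A match is only a run of letters and not a bound site.

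The 200 bases before the start site are shown for 3 genes with NRF1 letters that spread less than 2-fold and for 4 of the genes that spread 2-fold or more, as examples of what these promoters look like. The first 3 were picked for the letters, which 9 of the 50 members have, so nothing about steady and variable genes follows from the choice. They run 5′ to 3′ along the strand of the gene, and capitals mark any match to the 5 motifs above, each placed by its first base counted from the start site. Cox6a1 (chr5:115348959-115349158, minus strand) has NRF1 letters at -162 and -117 and ETS letters at -16. Ndufb4 (chr16:37654369-37654568, minus strand) has NRF1 letters at -191, -79 and -22 and ERR letters at -55. Ndufa11 (chr17:56717562-56717761, plus strand) has NRF1 letters at -60. Of the others, Cox5a (chr9:57521032-57521231, plus strand) has the hypoxia-response letters at -112. Cox7a1 (chr7:30183971-30184170, plus strand), Cox6b2 (chr7:4753095-4753294, minus strand) and Uqcr10 (chr11:4704345-4704544, minus strand) have no match in these 200 bases.
Cox6a1: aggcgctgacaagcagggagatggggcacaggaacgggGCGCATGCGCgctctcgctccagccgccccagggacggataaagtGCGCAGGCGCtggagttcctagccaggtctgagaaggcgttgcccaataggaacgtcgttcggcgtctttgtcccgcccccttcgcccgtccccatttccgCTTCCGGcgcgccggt
Ndufb4: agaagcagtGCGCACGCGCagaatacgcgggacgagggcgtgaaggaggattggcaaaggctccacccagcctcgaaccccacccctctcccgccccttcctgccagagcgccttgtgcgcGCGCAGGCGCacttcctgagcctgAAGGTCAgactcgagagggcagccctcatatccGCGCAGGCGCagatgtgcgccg
Ndufa11: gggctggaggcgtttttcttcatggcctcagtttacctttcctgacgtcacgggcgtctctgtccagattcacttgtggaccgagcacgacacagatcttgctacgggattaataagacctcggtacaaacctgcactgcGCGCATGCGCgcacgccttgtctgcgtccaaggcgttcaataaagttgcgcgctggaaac
Cox5a: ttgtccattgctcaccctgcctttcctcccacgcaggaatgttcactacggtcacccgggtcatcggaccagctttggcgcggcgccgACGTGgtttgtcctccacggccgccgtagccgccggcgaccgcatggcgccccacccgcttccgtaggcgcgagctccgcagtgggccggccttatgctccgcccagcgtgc
Cox7a1: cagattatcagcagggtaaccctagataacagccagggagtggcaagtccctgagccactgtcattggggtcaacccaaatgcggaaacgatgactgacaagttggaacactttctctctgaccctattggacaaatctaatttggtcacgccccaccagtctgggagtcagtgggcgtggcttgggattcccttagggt
Cox6b2: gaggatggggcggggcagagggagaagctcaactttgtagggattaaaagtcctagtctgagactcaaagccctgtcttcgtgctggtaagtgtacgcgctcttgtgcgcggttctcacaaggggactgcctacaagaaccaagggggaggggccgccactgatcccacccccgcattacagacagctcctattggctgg
Uqcr10: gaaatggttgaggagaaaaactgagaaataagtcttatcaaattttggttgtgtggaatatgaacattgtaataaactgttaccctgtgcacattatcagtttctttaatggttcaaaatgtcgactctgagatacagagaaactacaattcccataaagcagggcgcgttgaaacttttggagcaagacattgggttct

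The tissue-restricted forms were where single genes stood apart. Ndufa4l2 (GRCm38 chr10:127514967-127517154, plus strand), a relative of Ndufa4 known as a target of hypoxia-inducible factors, was at 0 and 392 TPM in the Oct4GFP+ and Oct4GFP- cells of mES medium, at 15.2 and 115 TPM in those of 5C medium and at 0.48, 1.61 and 1.76 TPM in naive, primed and R1 ESCs-primed cells. Both Oct4GFP- libraries were above all others, and 5C-Oct4GFP+ lay between. Ndufa4l2 made up 48.4% of the summed TPM of Ndufa4 and Ndufa4l2 in mES-Oct4GFP-, and 18.1% and 2.56% in the Oct4GFP- and Oct4GFP+ cells of 5C medium. Ndufa4 itself was lowest in mES-Oct4GFP- (419 TPM) and second lowest in mES-Oct4GFP+ (459 TPM), with 522 to 647 TPM elsewhere. An exon of Ndufa4l2 overlaps Shmt2 on the opposite strand, and Shmt2 was at 145 TPM in mES-Oct4GFP+, where Ndufa4l2 had 0 reads, and at 153 to 177 TPM in the other libraries. The 2 libraries high in Ndufa4l2 were also those with the highest sums of the 8 fibroblast markers (500 and 262 TPM). R1 ESCs-primed came next at 218 TPM, with Ndufa4l2 at 1.76 TPM, and 5C-Oct4GFP+ had the lowest sum (10.5 TPM), with Ndufa4l2 at 15.2 TPM. No fibroblast marker was at 0 in any library, and the part of fibroblasts was not tested.

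Cox7a1 (chr7:30184144-30186078, plus strand), the heart and skeletal muscle form of Cox7a, was at 181 and 16.4 TPM in the Oct4GFP+ and Oct4GFP- cells of mES medium, at 13.9 and 7.26 TPM in those of 5C medium and at 101, 18.6 and 12.5 TPM in naive, primed and R1 ESCs-primed cells. It stood high in mES-Oct4GFP+ and naive cells only, and 5C-Oct4GFP+ lay with the low libraries. Its part of the summed TPM of Cox7a1 and Cox7a2 was 40.3% in mES-Oct4GFP+, 26.1% in naive cells and 2.95% to 5.94% in the other 5. Cox7a2, the common form, was at 239 to 330 TPM throughout. The 8 muscle markers summed to 32.5 TPM in mES-Oct4GFP+ and 19.1 TPM in naive cells and to between 20.1 and 93.7 TPM in the other 5, with 3 to 5 of them at 1 TPM or more. Ckm, the muscle creatine kinase, was listed at 0 in 6 libraries and at 0.39 TPM in R1 ESCs-primed, and Myog was at most 0.21 TPM. Single markers went both ways: Ttn was at 2.31 and 1.61 TPM in mES-Oct4GFP+ and naive cells but at 3.28 TPM in 5C-Oct4GFP+, where Cox7a1 was low, and Tnnt1 was at 25.2 TPM in mES-Oct4GFP+ and 26.4 TPM in mES-Oct4GFP-. The part of muscle programmes in the level of Cox7a1 was not tested.

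Cox7b2 (chr5:71442824-71548205, minus strand), the testis form of Cox7b, was at 44.9 and 10.1 TPM in the Oct4GFP+ cells of mES and 5C medium, at 34.8 TPM in naive cells and at 0.68 TPM in primed cells. It had 0 reads in both Oct4GFP- libraries and in R1 ESCs-primed, which allows up to 1.45 to 1.66 TPM at 3 counts. It never made up more than 6.74% of Cox7b and Cox7b2 together. Cox6b2, the testis form of Cox6b, was present in every library, at 212 and 136 TPM in the Oct4GFP+ and Oct4GFP- cells of mES medium, at 251 and 117 TPM in those of 5C medium and at 123, 136 and 109 TPM in naive, primed and R1 ESCs-primed cells. The 2 sorted Oct4GFP+ libraries were the highest, and naive cells lay within the range of the others. Cox6b2 held 31.7% of Cox6b1 and Cox6b2 together in 5C-Oct4GFP+ and 13.3% in naive cells.

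Germ cell genes shared part of this order. The 8 germ cell markers summed to 542 TPM (mES-Oct4GFP+), 169.5 TPM (naive cells) and 40.9 TPM (5C-Oct4GFP+), with 6, 6 and 4 markers at 1 TPM or more, and to between 0.38 and 2.85 TPM in the other 4. Dazl was at 191, 135 and 9.10 TPM in those 3 libraries and Tex101 at 24.5, 17.5 and 0.18 TPM. Stra8 alone was at 306 TPM in mES-Oct4GFP+, with 4.67 TPM in naive cells and 0 in 5C-Oct4GFP+. Sycp3 and Mael were instead highest in 5C-Oct4GFP+ (13.4 and 12.7 TPM). They were at 7.29 and 3.06 TPM in mES-Oct4GFP+ and at 5.35 and 2.77 TPM in naive cells. Prm1 of spermatids was at most 0.76 TPM and Acrv1 at most 0.23 TPM. The part of germ cell programmes in the levels of Cox7b2 was not tested. Cox8b, the muscle form of Cox8, reached 4.06 TPM from 5 reads in 5C-Oct4GFP- and at most 0.79 TPM elsewhere. Cox8c, the testis form, reached 1.58 TPM from 3 reads in naive cells.

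**Figure D4:**
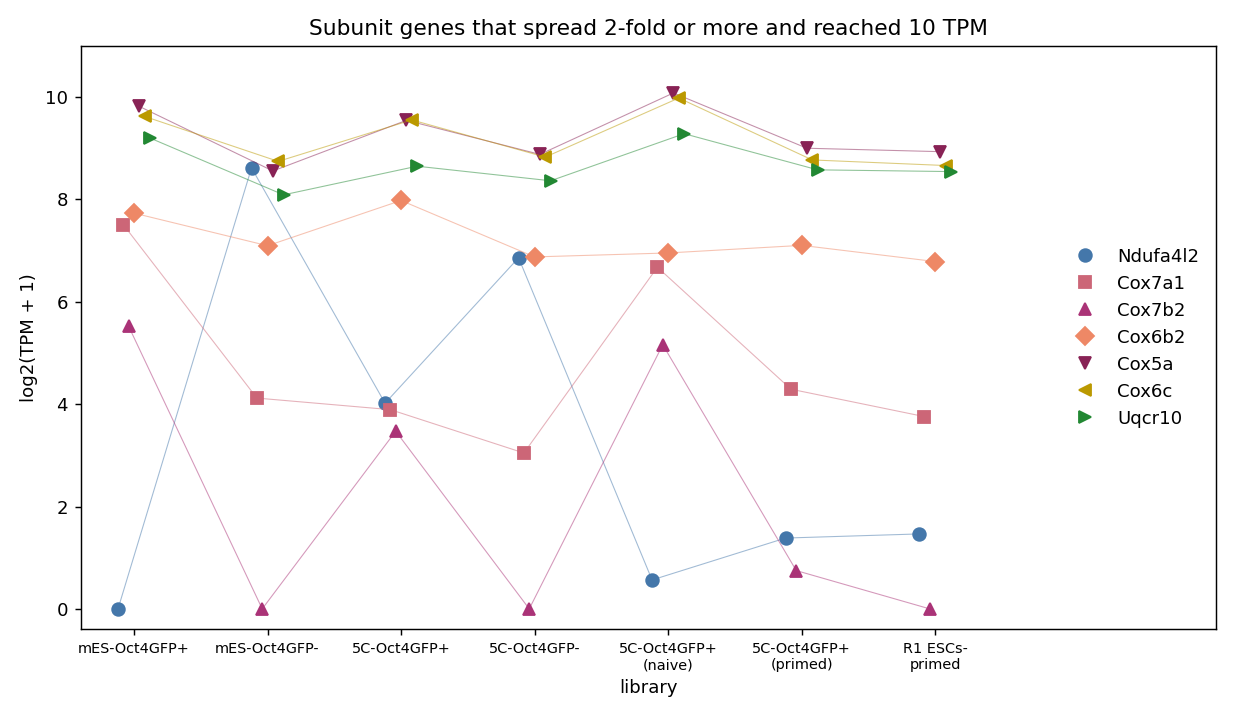
Level as log2(TPM + 1) (y axis) in the 7 libraries (x axis) of the 7 subunit genes that spread 2-fold or more and reached 10 TPM. The libraries have no order, and thin lines only join the points of a gene. Ndufa4l2 peaks in the Oct4GFP- libraries, Cox7a1 and Cox7b2 in mES-Oct4GFP+ and naive cells, and Cox5a and Cox6c in naive cells and both Oct4GFP+ fractions.

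Each comparison below takes 2 libraries and the genes with at least 1 TPM in either. A gene was counted as higher or lower past 1.5-fold on the log2(TPM + 1) scale, and the share of all genes tested past the same fold is the background. The comparisons share libraries with each other, so their counts are not independent. Ratios of single genes are TPM ratios with exact Clopper-Pearson 95% intervals from rounded expected counts, which cover counting error only. Between the 5 scalings, the median of all genes moved from -0.15 to -0.03 for the fractions of mES medium, from -0.25 to -0.02 for those of 5C medium, from -0.06 to 0.04 between the Oct4GFP+ fractions of both media, and from -0.14 to 0.00 for naive against primed cells. Members are therefore also given relative to it.

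The Oct4GFP+ and Oct4GFP- fractions of mES medium had the most members past 1.5-fold of the 8 comparisons. The question here is how cells with an active Oct4 reporter differ from those without it. In mES-Oct4GFP+ against mES-Oct4GFP-, 16 of 58 members were higher (27.5% of 16294 genes were higher) and 1 was lower (38.0% of all genes). The count of higher members is close to the background, and that of lower members is far under it. The median difference was 0.25 for the members and -0.15 for all genes. Complex I had 6 of 38 genes higher and a median of 0.17, complex III 3 of 8 and 0.40, and complex IV 7 of 12 and 0.66. Over 5 scalings these medians ran from 0.17 to 0.33, 0.40 to 0.53 and 0.66 to 0.83. All 12 complex IV genes tested were above 0, beside 7353 of 16294 of all genes. Cox7b2 was tested only through its level in mES-Oct4GFP+, and Cox8b (0 against 0.79 TPM) fell under the minimum. Cox5a was 2.40-fold higher (2.22 to 2.59) and Uqcr10 2.16-fold (1.92 to 2.44). Cox7a1 was 11-fold higher (7.0 to 18.3), and Cox7b2 at least 30.9-fold against a floor of 3 counts. The other higher genes of complex IV were Cox6a1, Cox6b2, Cox6c and Cox7c, and those of complex III were Uqcrb and Uqcrq. Ndufa4l2 was the only member lower, at least 386-fold. Over 5 scalings the members' median lay 0.40 to 0.42 above that of all genes. Beside these values, the fibroblast markers summed to 14.1 TPM in mES-Oct4GFP+ and 500 TPM in mES-Oct4GFP-, and their part was not tested.

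In 5C medium, too, complex IV had the largest share of genes higher in the Oct4GFP+ fraction. In 5C-Oct4GFP+ against 5C-Oct4GFP-, 8 of 59 members were higher (14.7% of all genes) and 3 were lower (35.5%). Medians were 0.11 for the members and -0.25 for all genes. Complex IV had 6 of 13 genes higher (Cox5a, Cox6b2, Cox6c, Cox7a1, Cox7b2 and Cox7c) and a median of 0.35, while complexes I and III had medians of 0.06 and 0.09. Over the 5 scalings these medians ran from 0.35 to 0.75 for complex IV, from 0.06 to 0.33 for complex I (2 to 8 genes higher) and from 0.09 to 0.36 for complex III. Cox6b2 was 2.16-fold higher (1.84 to 2.54), and Cox6c 1.66-fold (1.53 to 1.80). Cox7b2 was at least 6.73-fold higher. For Cox7a1 the ratio of 1.91 had an interval of 0.852 to 4.69, so its direction is not fixed by the 23 and 9 reads. Ndufa4l2 was 7.57-fold lower (5.93 to 9.78) and Uqcrh 1.61-fold lower (1.46 to 1.76), and Cox8b, with 0 reads against 5, was at least 2.23-fold lower. The choice of scaling matters here. With TMM factors the split of members moved from 8 higher and 3 lower to 17 and 1, with 21% and 29% of all genes. FPKM and median-ratio factors each gave 11 and 2, and CPM 11 and 1. Uqcrh kept its direction but fell short of 1.5-fold with median-ratio and TMM factors (-0.53 and -0.42). Relative to all genes the members' median was 0.34 to 0.39 higher under every one of the 5 scalings. The fibroblast markers summed to 10.5 and 262 TPM in these libraries, and their part was not tested.

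Between the media, few members differed. In 5C-Oct4GFP+ against mES-Oct4GFP+, 2 of 58 members were higher (21.9% of all genes) and 3 lower (24.5%), with medians of -0.04 for the members and -0.06 for all genes. The higher ones were Ndufa4l2, at least 15-fold, and Ndufa1, an accessory subunit, 1.51-fold (1.25 to 1.84). The lower ones were Cox7a1, 13.1-fold (8.42 to 21.1), Cox7b2, 4.45-fold (2.81 to 7.21), and Ndufb4, 1.67-fold (1.47 to 1.89). Ndufb4 has a near-identical stretch of 390 bases in a gene that is not in the tables, and its reads may be shared. The split of 2 higher and 3 lower became 4 and 3 with TMM factors, 3 and 3 with median-ratio factors and 1 and 3 with CPM. The members' median lay between -0.04 and 0.05 over the 5 scalings, so its sign depended on the scaling.

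In 5C-Oct4GFP- against mES-Oct4GFP-, 2 of 58 members were higher (19.9% of all genes) and 2 lower (19.1%), with medians of 0.08 and 0.03. Ndufs8, a core subunit, was 1.61-fold higher (1.38 to 1.89), and Cox8b passed the fold with 5 reads against 1, a ratio of 5.14 (0.578 to 244). Ndufa4l2 was 3.40-fold lower (3.06 to 3.79). Cox7a1 was 2.26-fold lower, but with 9 and 21 reads the interval ran from 0.991 to 5.60. With CPM, with or without TMM factors, 1 member was higher and 2 were lower.

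**Figure D5:**
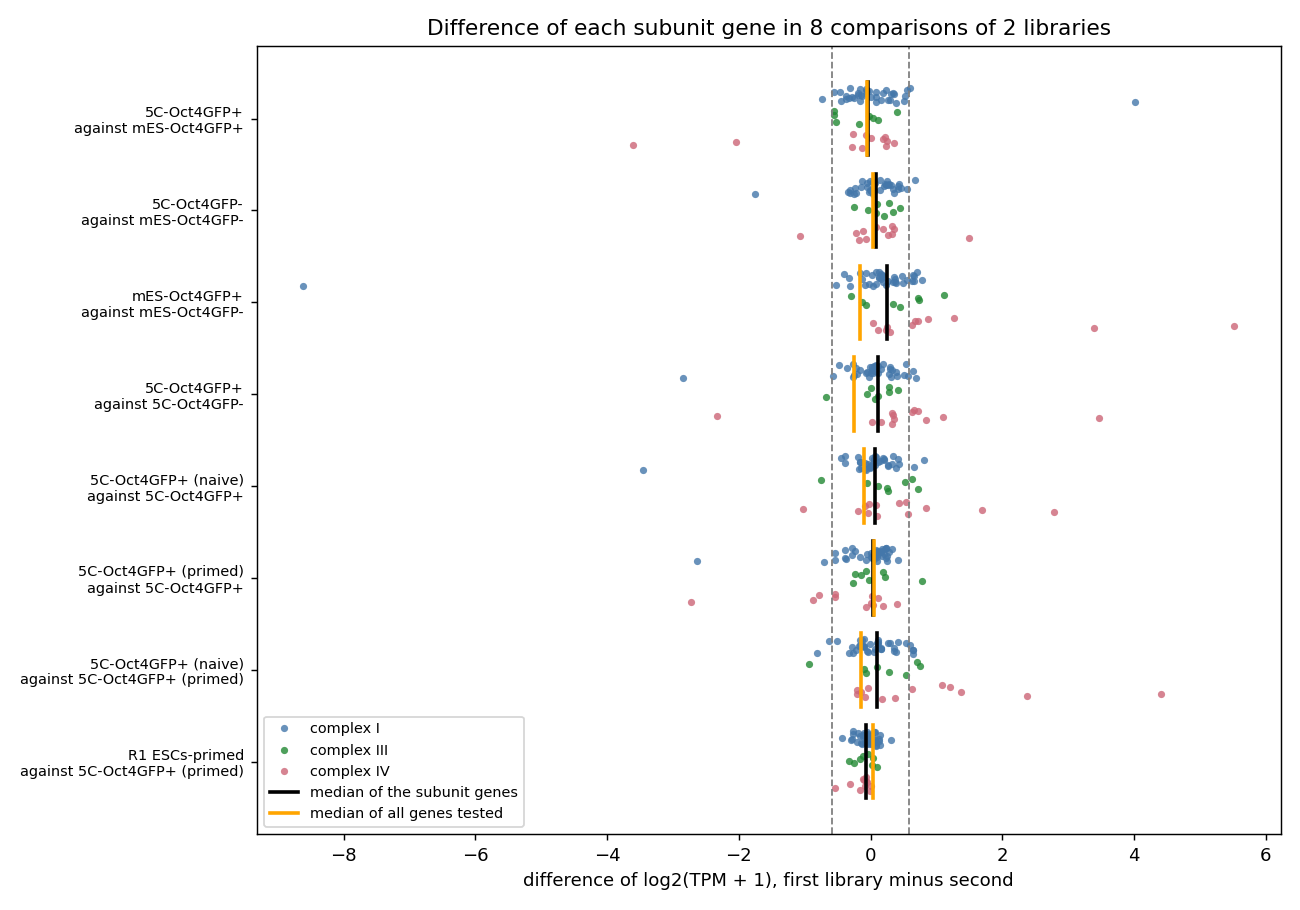
Difference of log2(TPM + 1) between 2 libraries (x axis, first minus second) for every subunit gene with at least 1 TPM in either, in the 8 comparisons (y axis), with 1 point per gene coloured by complex. Black and orange bars mark the medians of the subunit genes and of all genes tested, dashed lines mark 1.5-fold, and 6 or 7 complex IV points lie past 1.5-fold on the right where Oct4GFP+ is set against Oct4GFP- and naive against primed.

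Conversion of 5C-Oct4GFP+ cells to the naive state left most members near their level. In naive cells against 5C-Oct4GFP+, 7 of 59 members were higher (18.3% of all genes) and 3 lower (28.6%), with medians of 0.07 for the members and -0.10 for all genes. Cox7a1 was 7.31-fold higher (4.68 to 11.9), Cox7b2 3.45-fold (2.20 to 5.56), Ndufb10, an accessory subunit of the membrane arm, 1.76-fold (1.58 to 1.96), and Uqcrh 1.64-fold (1.5 to 1.80). Ndufb4 and Uqcr10 were higher as well, and Cox8c passed the fold with 3 reads against 1, a ratio of 3.59 (0.291 to 190). Cox6b2 was 2.04-fold lower (1.76 to 2.38), Uqcrfs1 1.69-fold (1.53 to 1.87), and Ndufa4l2 31.7-fold, from 77 to 2 reads, with an interval of 8.52 to 268.

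Conversion to the primed state gave 1 of 58 members higher (24.2% of all genes) and 5 lower (24.3%), with medians of 0.03 and 0.06. Uqcrh was 1.73-fold higher (1.59 to 1.88). Cox6c was 1.72-fold lower (1.60 to 1.85), Cox6b2 1.84-fold (1.61 to 2.11), Ndufa4l2 9.45-fold (4.72 to 21.4) and Cox7b2 14.8-fold (3.74 to 129), the last from 27 to 2 reads. Ndufb6, an accessory subunit, was the remaining lower gene. The number of lower members was 9 with TMM or median-ratio factors, and the members' median lay between -0.02 and 0.06 over the 5 scalings. All 8 fibroblast markers were higher in primed cells, with a median of 2.15 and sums of 77.0 against 10.5 TPM, and their part was not tested.

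Naive against primed cells sets the 2 conversions side by side. Of 59 members, 12 were higher in naive cells (24.4% of all genes) and 3 lower (32.6%), with medians of 0.10 for the members and -0.14 for all genes. Complex IV had 6 of 13 genes higher and 0 lower, with a median of 0.38, but Cox8c counts among the 6 with 3 reads against 0, an interval that starts at 0.550 and does not fix its direction. With FPKM, CPM or TMM factors Cox8c missed the minimum level, and 5 of 12 genes were higher with medians of 0.23 to 0.34. Complex I had 4 of 38 higher and 2 lower and a median of 0.06, which ran to 0.25 over the scalings. Cox6c was 2.32-fold higher (2.16 to 2.49), Cox5a 2.12-fold (2.0 to 2.24), Cox7a1 5.44-fold (3.72 to 8.17) and Cox7b2 51.1-fold (13.7 to 431), the last against 2 reads. Cox6a1 was the other higher gene of complex IV. Uqcrfs1 was 1.92-fold lower (1.75 to 2.12), Ndufb3, an accessory subunit, 1.56-fold lower (1.33 to 1.83), and Ndufa4l2 was 3.35-fold lower from 2 and 9 reads (0.699 to 32.1). With CPM the split was 11 higher and 1 lower, with FPKM or TMM factors 13 and 1, and with median-ratio factors 14 and 2. The members' median lay 0.24 above that of all genes under each of the 5 scalings. The fibroblast markers summed to 15.7 TPM in naive cells and 77.0 TPM in primed cells, with 6 of 8 lower in naive cells, and their part was not tested.

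The 2 primed libraries hardly differed in these genes. In R1 ESCs-primed against primed cells, 0 of 57 members were higher and 0 lower, with 11.1% and 6.73% of 14600 genes past the same fold. The members' median was -0.07 and that of all genes 0.03. Of complex IV, 10 of 11 genes were below 0, none past 1.5-fold, beside 6670 of 14600 of all genes below 0. The fibroblast markers summed to 218 TPM in R1 ESCs-primed and 77.0 TPM in primed cells.

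Other genes of the pathway are given from lists chosen as background. The 4 genes of complex II, which feeds electrons from succinate, had none past 1.5-fold in any of the 8 comparisons, with the widest difference at 0.39 for Sdhb (195 TPM in 5C-Oct4GFP+, 149 in mES-Oct4GFP+). Of 16 genes of ATP synthase, 2 were higher and 1 lower in mES-Oct4GFP+ against mES-Oct4GFP-, with a median of 0.43, and 1 was higher and 0 lower in naive against primed cells, with a median of 0.24. All shares of genes past 1.5-fold given above for a comparison are the background of these lists too, with 27.5% higher and 38.0% lower in the first of these comparisons and 24.4% and 32.6% in the second. Atp5g1, 1 of the genes for the membrane ring, was at 673 and 285 TPM in the Oct4GFP+ and Oct4GFP- cells of mES medium, at 454 and 341 TPM in those of 5C medium and at 846, 373 and 436 TPM in naive, primed and R1 ESCs-primed cells. Its 3 highest libraries were those of Cox5a and Cox6c. Atp5d, a subunit of the central stalk, was lowest in mES-Oct4GFP+ (251 TPM) and at 341 to 449 TPM elsewhere.

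The subunits and carriers that the symbols missed showed the same mixture. Cox4i1, the common form of the largest nuclear subunit of complex IV, was at 680 to 917 TPM, and Cox7a2l, which helps join complexes III and IV, at 260 to 305 TPM. Cox4i2, the form of Cox4i1 used at low oxygen, was at 26.0 and 3.23 TPM in the Oct4GFP- cells of mES and 5C medium and at most 0.72 TPM elsewhere. The 2 libraries with the most Cox4i2 were thus those with the most Ndufa4l2. Cyct, the testis form of cytochrome c, was at 41.3 and 70.2 TPM in the Oct4GFP+ cells of mES and 5C medium, at 22.2 TPM in naive cells and at 0.27 to 1.79 TPM in the other 4, while Cycs was at 12.1 to 27.7 TPM. Cyc1, the cytochrome of complex III, was lowest in mES-Oct4GFP- (185 TPM) and at 258 to 346 TPM elsewhere.

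Of the 45 assembly factors, 6 were higher and 6 lower in mES-Oct4GFP+ against mES-Oct4GFP- (44 tested), and 5 and 4 in naive against primed cells (43 tested), so that in each direction a smaller share of them passed 1.5-fold than of all genes (27.5% and 38.0%, and 24.4% and 32.6%). Coa7, needed to build complex IV, was at 108 TPM in mES-Oct4GFP+ and 118 in naive cells and at 18.7 to 53.6 TPM in the other 5. Pet117, another complex IV factor, was at 11.8 TPM in 5C-Oct4GFP+ and at most 2.60 TPM elsewhere. In the list of 20 regulators of respiratory genes, 6 were higher and 5 lower in mES-Oct4GFP+ against mES-Oct4GFP-, and 6 and 3 in 5C-Oct4GFP+ against 5C-Oct4GFP-, with 18 tested in each. The first counts are near the background of 27.5% and 38.0%, and in 5C medium the background was 14.7% and 35.5%. Nrf1 was lowest in the 2 Oct4GFP- libraries (40.6 and 54.1 TPM) and at 69.2 to 86.7 TPM elsewhere, and Gabpa, which binds ETS letters, was lowest there too (50.2 and 47.7 TPM against 66.5 to 105 TPM). Esrra ran the other way, at 38.4 and 25.3 TPM in the Oct4GFP- cells of mES and 5C medium and at 12.7 to 18.9 TPM elsewhere. Yy1 had neither order, with 64.9 TPM in primed cells and 75.5 to 97.35 TPM elsewhere. Gabpb1 was at 35.7 and 49.55 TPM in the Oct4GFP- cells of mES and 5C medium and at 37.3 to 56.2 TPM elsewhere. Esrrb is given above. Myc was at 1884 and 1622 TPM in the Oct4GFP- libraries and at 20.6 to 211 TPM elsewhere, and since c-Myc was also delivered by retrovirus, these values do not separate the cell's own gene from the vector. Hif1a was at 46.9 to 97.1 TPM. Epas1 was at 90.5 TPM in 5C-Oct4GFP+, at 68.6 and 57.8 TPM in the Oct4GFP- cells of mES and 5C medium and at 3.77 to 20.9 TPM elsewhere. Of 21 genes of the citric acid cycle and pyruvate entry, 2 were higher and 3 lower in mES-Oct4GFP+ against mES-Oct4GFP-, both under the background. Pdk2, a kinase that restrains pyruvate dehydrogenase, was at 29.2 and 20.7 TPM in the Oct4GFP- libraries and at 2.03 to 6.29 TPM elsewhere, and Pdk4 was highest in 5C-Oct4GFP+ (12.1 TPM) and at most 3.02 TPM elsewhere. The more abundant Pdk1 was at 233 TPM in 5C-Oct4GFP+, at 162 and 75.1 TPM in the Oct4GFP- cells of mES and 5C medium and at 28.7 to 44.9 TPM elsewhere.

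Among 6757 other genes with at least 10 TPM in every library, those whose log2(TPM + 1) followed the mean of the 61 members most closely were Gm9396 (Pearson r = 0.988), Mif4gd (0.980), Znrf2 (0.977), Cdc37l1 (0.974) and Gcdh (0.972). These values describe 7 libraries with shared scaling, and the highest of many correlations over so few points is high by selection.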

How the data were processed

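RNA from 7 groups, with 1 library each, was made into TruSeq mRNA-Seq libraries and sequenced on a MiSeq. The authors processed the reads with Bowtie and RSEM on mm10 (versions not given in the sources used here). The authors deposited expected counts (reads per gene as RSEM estimates them, not normalized), TPM (counts over effective length, set to one common library sum) and FPKM (counts over length and mapped fragments, used here only as an alternative). Effective length is about 73.5 bases under length, which weighs on short genes: 49 of 61 members were under 1000 bases.

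Differences were taken on log2(TPM + 1) among genes with at least 1 TPM in either library. With 1 library per group nothing was tested. Expected counts were rounded for intervals, which, like the floor of 3 counts, cover counting error only. PCR copies were not separable. Symbols and coordinates came from GENCODE M21 (28756 of 29267 identifiers matched), promoters from RefSeq (GRCm38.p6), and near-identical copies from transcript alignment (at least 75 bases at 97% identity). Of the members, 20 had such a copy and 22 an exon overlapping another gene. The 13 mitochondrially encoded genes were not analysed here.

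Named genes were the highest and lowest of each complex, up to 4 per direction and comparison (at least 10 TPM in either library and 1.5-fold), the paralogue families, the core subunits and, from each pathway list, the 2 with the widest difference. Other names were added after their values were seen. The values of 1 gene that this rule names are not reported here. The members and lists were chosen with earlier results of these data known. Scripts were tested on simulated data. TMM factors came from edgeR 4.0.16 in R 4.3.3, figures from matplotlib 3.10.9, and all else from scipy 1.17.1, pandas 2.3.3 and numpy 2.4.6 under Python 3.11.15.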

Additional observations from a re-analysis of the deposited data

Results flagged for a closer look

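Ndufa4l2 moved in opposite directions with the medium in the 2 sorted fractions. On the log2(TPM + 1) scale, 5C medium minus mES medium was 4.02 in Oct4GFP+ cells (15.2 against 0 TPM) and -1.76 in Oct4GFP- cells (115 against 392 TPM). With 1 library on each side, the difference between the fractions was not tested. No other named gene differed past 1.5-fold in opposite directions between the fractions or between the media.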

How the results depend on the processing

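No paired analysis was possible because every group has 1 library, and for the same reason no library could be left out. The planned removal of mitochondrially encoded genes was not run because the tables hold 0 of them. Of 128 counts of members under 8 alternatives, 105 stayed within 1.5 times, and of 72 medians under 9 alternatives, 69 moved by less than the median half-width of the counting intervals. With CPM the members higher were 1 in 5C-Oct4GFP+ against mES-Oct4GFP+ and 1 in 5C-Oct4GFP- against mES-Oct4GFP-, and those lower 2 in mES-Oct4GFP+ against mES-Oct4GFP-, 1 in 5C-Oct4GFP+ against 5C-Oct4GFP- and 1 in naive against primed cells. With TMM factors the same counts were 4, 1, 2, 1 and 1, and 17 members were higher in 5C-Oct4GFP+ against 5C-Oct4GFP- and 9 lower in primed cells against 5C-Oct4GFP+, also 9 with median-ratio factors. TMM factors moved the medians to 0.37 (5C-Oct4GFP+ against 5C-Oct4GFP-) and 0.25 (naive against primed), and the mean in place of the median gave -0.12 for primed cells against 5C-Oct4GFP+, of the opposite sign to the median of 0.03. FPKM left 1 member lower in naive against primed cells. A minimum of 5 TPM left 1 higher in 5C-Oct4GFP- against mES-Oct4GFP-, and without a filter 2 were lower in mES-Oct4GFP+ against mES-Oct4GFP- and 1 in R1 ESCs-primed against primed cells. An alternative chosen after seeing the data kept the 32 members without a near-identical copy or an overlapping exon. It left 1 higher in 5C-Oct4GFP+ against mES-Oct4GFP+, 3 in 5C-Oct4GFP+ against 5C-Oct4GFP- and 5 in naive against primed cells, and 1 lower in 5C-Oct4GFP- against mES-Oct4GFP-, 0 in mES-Oct4GFP+ against mES-Oct4GFP- (Ndufa4l2 is among those left out) and 2 in primed cells against 5C-Oct4GFP+, with fewer genes counted. With expected counts in place of TPM, where longer genes weigh more, complex I held 50.4%, 56.8%, 51.2%, 55.2%, 49.5%, 52.9% and 53.4% of the members' sum, complex III 19.4%, 18.9%, 17.9%, 19.7%, 18.8%, 19.1% and 19.1%, and complex IV 30.2%, 24.2%, 30.8%, 25.1%, 31.8%, 28.0% and 27.5% in mES-Oct4GFP+, mES-Oct4GFP-, 5C-Oct4GFP+, 5C-Oct4GFP-, naive, primed and R1 ESCs-primed libraries. Of 259 values for single genes, 236 moved by no more than the half-width of their counting interval and 0 changed sign. For genes with 0 reads in a library a limit of 1 took the place of the half-width. The minimum of 5 TPM and the lack of a filter, with 37 of these values each, cannot move the value of a single gene. The pseudocount weighs on genes without reads, and with 0.1 the differences of Ndufa4l2 were 7.26 in 5C-Oct4GFP+ against mES-Oct4GFP+ and -11.9 in mES-Oct4GFP+ against mES-Oct4GFP-.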
